A study of Rattus norvegicus with 9 samples.

Results

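Vgf, Crh, Pdyn, Penk, Scg2, Adcyap1, Tac1, Chga and Chgb encode precursors of secreted neuropeptides or granins, and their messenger RNA was followed in rat cortical neurons as activity returned after a block. The genes were taken by name, with every probe that carries the name. Together they were 9 genes read by 13 probes, of 41012 probes on the array and 25787 genes or features tested. Of these 25787, 12304 had a gene symbol. Shares of all genes given below are over all 25787, with or without a symbol. The name Penk (or its older form Penk1) is not on the array, whose 2 probes for this gene carry the name Penk-rs and the accession NM_017139, and RefSeq lists that name as a synonym of Penk. They were counted as Penk. The neurons were dissociated from the cortices of prenatal rat pups, a strain not being named, and were kept in Neurobasal medium, supplemented with either B27 or NS21, until 11 to 15 days in culture. All 3 groups had been held for 48 h in tetrodotoxin (TTX), which blocks voltage-gated sodium channels and thereby action potentials. The samples called TTX were taken with the toxin still present, and the W15 and W45 groups 15 and 45 min after its removal with 3 washes. Each group had 3 single-colour arrays, each from 500 ng of total RNA. The labels do not say whether the replicates were separate cultures, so p values measure only the spread between these samples. No group was washed without prior toxin or mock-washed, so that the change of medium and the return of firing cannot be told apart in these data.

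Neuropeptides and granins are made as larger precursors, sorted into dense-core granules in the Golgi, cut there by prohormone convertases and carboxypeptidase E, and released by calcium entry when a neuron fires strongly. Granins are acidic proteins that help to form the granules and are themselves cut into peptides. A released granule is replaced by new synthesis. The transcription of several of these genes follows activity, in part through CREB, a transcription factor that binds the cAMP response element (CRE).

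Per array, 72.4 to 77.9% of probes gave a signal well above background. The number of arrays limits the precision. Values are log2 signals set against the array's own 75th percentile, so 0 is the level of that percentile, and they compare arrays for 1 probe, not probes with each other. Of Arc, Fos, Npas4, Egr1, Junb and Nr4a1, the immediate early genes used to mark active neurons, 4 of 6 rose at 15 min and 6 of 6 at 45 min (limma adjusted p under 0.05). Of all genes tested, 0.0233% were called at 15 min and 0.182% were called higher at 45 min. Npas4, at a mean of -8.52 in TTX, was well above background on 6 of the 9 arrays. It was kept only through the washout groups, which favours a rise, so its part in these counts is a description. The 8 neuronal marker genes, Rbfox3, Map2 and Snap25 among them, were all well above background on all 9 arrays, as were 5 of 6 astrocyte markers, 7 of 7 oligodendrocyte-lineage markers, 1 of 6 microglial markers and 2 of 5 markers of vessels. The summed level of the neuronal markers, in multiples of the 75th percentile, ranged from 137 to 161 in TTX, 139 to 166 in W15 and 131 to 167 in W45. That of the 7 markers of inhibitory neurons, many of which make neuropeptides, ranged from 9.71 to 11 in TTX, 9.92 to 12.8 in W15 and 10.2 to 12.5 in W45, and 0 of the 7 were called in any comparison. These 2 sums mostly follow their brightest probe, that of Tubb3 (mean level 88.4) and that of Slc32a1 (7.51). The sum of the markers of excitatory neurons, 5 of 6 tested, varied more between the W45 arrays. It ranged from 18 to 19.6 in TTX, 18.4 to 19.8 in W15 and 13 to 27.5 in W45, and 0 of the 5 were called in any comparison.

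At 15 min none of the 9 genes had changed by limma's test. The comparison asks which of them answer within minutes of washout, and 0 of 9 were called, against 0.0233% of all genes, while at an unadjusted p under 0.05 there was 1 lower (Chgb) and 0 higher, against 0.919% of all genes lower and 2.58% higher. The differences from TTX were below 0 for 8 of 9, with a median of -0.23 on the log2 scale. Tac1, at only -5e-04, is counted among the 8. Of all genes tested 61.9% were above 0, with a median of 0.056. The arrays of the groups did not overlap, W15 being lower, for 2 of 9 (Chgb and Penk), against 3.7% of all genes. Genes are counted by their brightest probe. The dimmer Penk probe lay the other way, W15 being higher. It was not well above background on any TTX array and was kept only through the washout groups, which favours that direction.

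At 45 min Vgf had risen and the other 8 genes had not passed the test. The call of 1 of 9 compares with 0.182% of all genes called higher in W45 against TTX. The differences were above 0 for 7 of 9, with a median of 0.26, against 60% of all genes above 0 and a median of 0.051. The 3 arrays of W45 lay above all 3 of TTX for 4 of 9 genes (Vgf, Crh, Penk and Chgb), against 8.36% of all genes. Between the washout times, W45 against W15, Vgf and Crh rose, 2 of 9 against 0.12% of all genes. Here 8 of 9 differences were above 0, with a median of 0.55, against 49.6% of all genes above 0 and a median of -0.0019, and 4 of 9 genes (Vgf, Crh, Penk and Chgb) had no overlap, against 3.93% of all genes. The comparisons share arrays: the TTX arrays serve both washout times, and the W15 and W45 arrays each serve 2 comparisons.

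**Figure D1:**
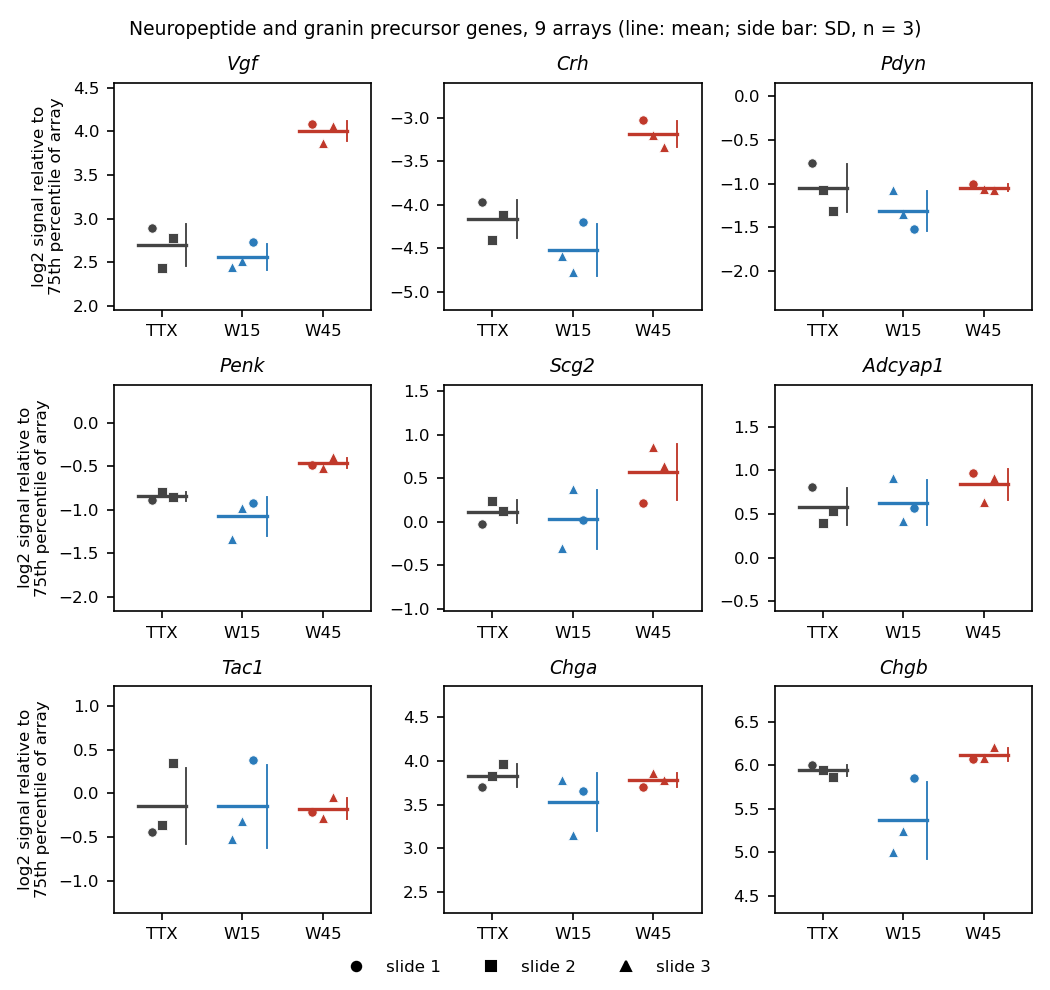
Log2 signal above or below the array's 75th percentile (vertical axis) of the brightest probe of each gene on the 9 arrays, by group (horizontal axis); points are arrays, their shape gives the slide, lines are group means and side bars the SD of 3 arrays. Every panel spans the same number of log2 units. The W45 arrays of Vgf (3.87 to 4.08) and Crh (-3.34 to -3.03) lie apart from both other groups, whereas those of Tac1 and Chga lie among them.

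**Figure D2:**
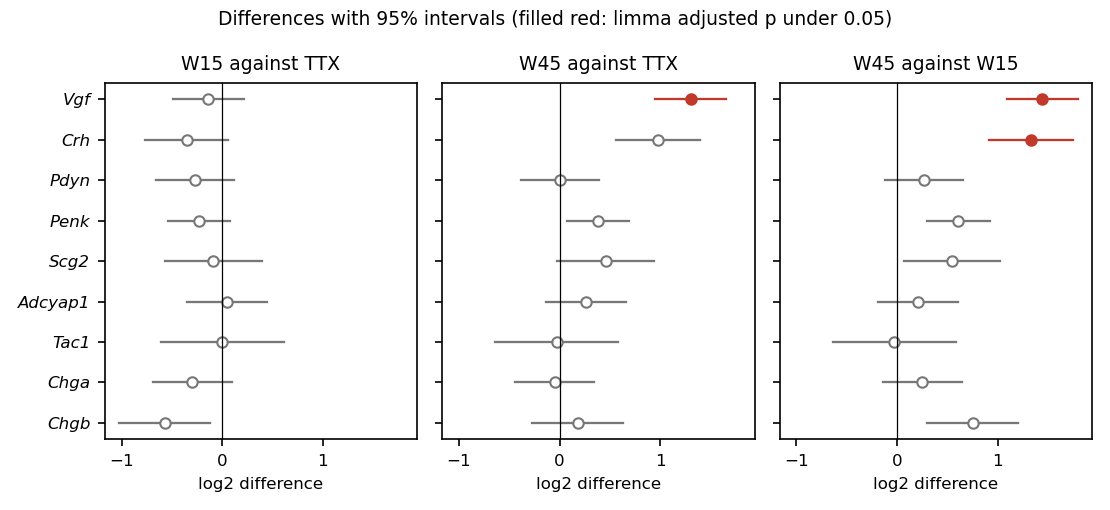
Log2 difference (horizontal axis) of each gene (vertical axis) in the 3 comparisons, with its 95% interval from limma; filled red points have an adjusted p under 0.05. Vgf is filled in both comparisons of W45, at 1.31 and 1.45, and Crh in W45 against W15, at 1.33.

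Vgf encodes a granin-like precursor that is cut into several bioactive peptides and is induced by nerve growth factor and BDNF. Its log2 signal was 2.89, 2.43 and 2.78 on the TTX arrays, 2.44, 2.51 and 2.73 on the W15 arrays and 4.08, 3.87 and 4.06 on the W45 arrays. The W45 arrays stood together above the other 6, while TTX and W15 overlapped. Vgf rose 2.47-fold from TTX to 45 min (95% interval 1.94 to 3.16), or 1.31 ± 0.16 in log2 units (SE; 3 arrays per group; limma adjusted p = 0.0112). From 15 to 45 min Vgf rose by 1.45 ± 0.16 (limma adjusted p = 0.00856), and at 15 min its difference from TTX was -0.14 ± 0.16 (adjusted p = 0.991). In bulk RNA, more cells that express a gene and more RNA per cell cannot be told apart. The call for Vgf against TTX was lost without TTX replicate 2 (1.17, adjusted p = 0.0544), without TTX replicate 3 (1.34, adjusted p = 0.0594), with normexp background correction (1.26, adjusted p = 0.139), without scaling (1.04, adjusted p = 0.250), with slide as a fixed block (1.24, adjusted p = 0.505) and in a fit of only the groups compared (adjusted p = 0.0669). The call against W15 was lost without W15 replicate 1 or 2 (1.39 and 1.42, adjusted p = 0.0653 and 0.0627), with normexp (adjusted p = 0.0921) and without scaling (adjusted p = 0.0830). Over all 22 alternatives the limma adjusted p of the rise from TTX to 45 min ran from 0.00189 to 0.505, and that rise itself from 1.04 to 1.40.

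Of the 9 genes, 6 had an entry in the RefSeq table of promoter windows (GRCr8). Crh, Penk and Chga had none, so they were not searched. The letters of the full CRE, TGACGTCA, stood in the 250 bases before the start of 2 of the 6, Vgf and Scg2. The stretches around that match are printed because Vgf rose and Scg2 is the other gene searched that has the motif. Capitals mark the CRE. The Vgf stretch is chr12:25277058-25277180, minus strand, with the CRE 90 to 83 bases before the start, and the Scg2 stretch is chr9:88256937-88257059, minus strand, with the CRE 123 to 116 bases before the start.
Vgf: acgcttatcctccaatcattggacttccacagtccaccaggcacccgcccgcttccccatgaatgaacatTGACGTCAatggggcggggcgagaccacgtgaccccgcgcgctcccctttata
Scg2: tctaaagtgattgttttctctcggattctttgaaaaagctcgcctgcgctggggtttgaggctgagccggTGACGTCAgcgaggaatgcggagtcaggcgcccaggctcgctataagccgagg
Both strands were searched. The 8 letters of the CRE, which read the same on both strands, stood in 1.59% of 33469 windows of the same length. Its core TGACG, which lies within the CRE and is counted again there, stood in 3 of the 6 members (Vgf, Scg2 and Tac1) and 18.2% of all windows. The E-box CACGTG stood in 2 (Vgf and Tac1) and 5.59% of all windows. In Vgf the E-box lies 65 to 60 bases before the start, inside the printed stretch. The AP-1 letters TGANTCA stood in 0 of the 6 and 6.34% of all windows, the CArG box in 0 of the 6 and 1.5%, and TATAAA, searched on the gene's strand alone, in 3 of the 6 (Vgf, Pdyn and Adcyap1) and 8.06%. These matches describe letters in a window; binding was not measured.

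Crh encodes the precursor of corticotropin-releasing hormone, which in cortex is made by a subset of inhibitory neurons and elsewhere drives the stress axis. Its probe, averaged over 10 spots on each array, gave a log2 signal of -3.97, -4.40 and -4.12 in TTX, -4.59, -4.77 and -4.19 in W15 and -3.03, -3.19 and -3.34 in W45. The W45 arrays lay above all others, and the W15 arrays lay low but overlapped TTX. Crh rose 2.52-fold from 15 to 45 min (95% interval 1.89 to 3.36), or 1.33 ± 0.18 in log2 units (SE; limma adjusted p = 0.0349). Against TTX the value at 45 min was 0.98 ± 0.18 (adjusted p = 0.144), and that at 15 min was -0.35 ± 0.18 (adjusted p = 0.991). Neither passed the threshold. The probe is dim, and when background was corrected by the normexp model the difference from 15 to 45 min was 0.35 (adjusted p = 0.692) and that at 15 min against TTX turned to 0.30. The call for Crh held in 8 of the 22 alternatives, with adjusted p from 0.0248 to 0.692, and when 1 array was left out it held in 3 of 9 fits, those without W15 replicate 3, W45 replicate 1 or W45 replicate 3. Its lowest leave-one-out value was 1.20 and its highest 1.495.

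The arrays lay on 3 slides. Slide 1 carried 1 array of each group (TTX replicate 1, W15 replicate 3, W45 replicate 1). TTX replicates 2 and 3 were alone on slide 2, and the other two arrays of W15 shared slide 3 with those of W45. Within slide 1, Vgf was 1.19 higher in W45 than in TTX on the log2 scale and Crh 0.94 higher, close to the values over all arrays. From W15 to W45, Vgf differed by 1.35 within slide 1 and 1.49 within slide 3, and Crh by 1.16 and 1.42. With slide as a fixed block both genes were still called in W45 against W15 (limma adjusted p = 0.0249 for Vgf and 0.0381 for Crh), whereas that fit lost Vgf against TTX, as given above. With slide as a random block Crh was not called (adjusted p = 0.0569).

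Penk and Pdyn encode the precursors of the opioid peptides enkephalin and dynorphin. The brighter Penk probe gave a log2 signal of -0.89, -0.80 and -0.86 in TTX, -1.33, -0.97 and -0.92 in W15 and -0.48, -0.52 and -0.39 in W45. These groups did not overlap, W15 being lowest and W45 highest. The difference at 45 min from TTX was 0.38 ± 0.14 (limma adjusted p = 0.709) and from W15 was 0.61 ± 0.14 (adjusted p = 0.333), so neither was called. The second Penk probe, which the files place elsewhere in the gene (rn3, chr5:17514076-17514135 against chr5:17509637-17509696), gave other values. Its log2 signal was -7.33, -6.97 and -7.66 in TTX, where it was not well above background on any array. It was -5.61, -6.05 and -6.72 in W15 and -6.78, -5.67 and -5.95 in W45, well above background on all 6. Both washout groups lay above TTX and overlapped each other. By group means, the second probe was 1.95-fold higher in W15 and 1.94-fold higher in W45 than a raised TTX level. That level was, on each array, the lowest signal among probes well above background or the probe's own signal, whichever was higher. These folds take no account of the spread between arrays. This probe passed the filter on dim probes only through the washout groups, which favours that direction. The folds are therefore a description, and no test of the direction is given. The brighter probe was at -0.23 ± 0.14 at 15 min (limma adjusted p = 0.991). With the mean of both in place of the brighter probe, the differences were 0.48 at 15 min and 0.78 at 45 min from TTX, and 0.30 between 15 and 45 min. That mean takes in the second probe and so is favoured in the same way, and no test of it is given.

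Pdyn showed no such order. Its log2 signal was -0.77, -1.07 and -1.31 in TTX, -1.07, -1.35 and -1.53 in W15 and -1.004, -1.06 and -1.07 in W45. All 3 groups overlapped. The difference at 45 min from TTX was 0.003 ± 0.17 (95% interval -0.38 to 0.39, limma adjusted p = 0.998), an interval that leaves room for a change of about 1.31-fold in either direction.

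Scg2 encodes secretogranin II, a granin that yields the peptide secretoneurin. Its log2 signal was -0.03, 0.24 and 0.13 in TTX, -0.31, 0.37 and 0.01 in W15 and 0.22, 0.85 and 0.64 in W45. W45 replicates 2 and 3, both on slide 3, were the highest, and W45 replicate 1 lay among the arrays of the other groups. The difference was 0.46 ± 0.21 from TTX (limma adjusted p = 0.768) and 0.55 ± 0.21 from W15 (adjusted p = 0.743), and neither was called. Within slide 1 these differences were 0.24 and 0.20, and within slide 3 the difference from W15 was 0.72.

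Chga and Chgb encode chromogranin A and chromogranin B, abundant soluble proteins of the granule core. Chgb gave a log2 signal of 6.003, 5.95 and 5.87 in TTX, 5.01, 5.24 and 5.86 in W15 and 6.07, 6.08 and 6.21 in W45. W15 replicates 1 and 2 stood well below every other array, and W15 replicate 3 lay just under the lowest TTX array. Chgb differed by -0.57 ± 0.20 at 15 min from TTX (unadjusted p = 0.0188, limma adjusted p = 0.991) and by 0.75 ± 0.20 between 15 and 45 min (adjusted p = 0.532). Neither was called. The low arrays lie on slide 3: within slide 1 Chgb differed by -0.15 between TTX and W15 and by 0.22 between W15 and W45, and within slide 3 by 1.02 between W15 and W45. At 45 min Chgb was 0.18 ± 0.20 from TTX (adjusted p = 0.920).

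Chga was read by 2 probes. The brighter gave a log2 signal of 3.70, 3.83 and 3.96 in TTX, 3.79, 3.15 and 3.65 in W15 and 3.70, 3.86 and 3.78 in W45. The groups overlapped, and W15 replicate 2 was the lowest array. The difference at 45 min from TTX was -0.05 ± 0.17 (95% interval -0.44 to 0.34, limma adjusted p = 0.978). At 15 min the brighter probe was at -0.30 ± 0.17 (adjusted p = 0.991) and the other at 0.01 ± 0.19 (adjusted p = 0.9998), so the lower value at 15 min was seen with 1 of the 2 probes.

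Adcyap1 encodes the precursor of PACAP, a peptide that raises cAMP in its target cells, and was read by 3 probes. The brightest gave a log2 signal of 0.81, 0.40 and 0.53 in TTX, 0.91, 0.41 and 0.56 in W15 and 0.97, 0.64 and 0.91 in W45. The groups overlapped. The difference at 45 min from TTX was 0.26 ± 0.18 for this probe (limma adjusted p = 0.848), 0.23 ± 0.19 for another (adjusted p = 0.875) and 0.01 ± 0.24 for the remaining one (adjusted p = 0.997), and none was called.

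Tac1 encodes the precursor of substance P and neurokinin A. Its probe, averaged over 10 spots per array, gave a log2 signal of -0.44, -0.36 and 0.35 in TTX, -0.52, -0.31 and 0.39 in W15 and -0.21, -0.28 and -0.04 in W45. Replicate 3 was the highest array of each group, and the W45 arrays lay within the range of both other groups. The difference at 45 min from TTX was -0.03 ± 0.27 (95% interval -0.64 to 0.58, limma adjusted p = 0.992), the widest interval among the 9 genes, as it was in both other comparisons.

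**Figure D3:**
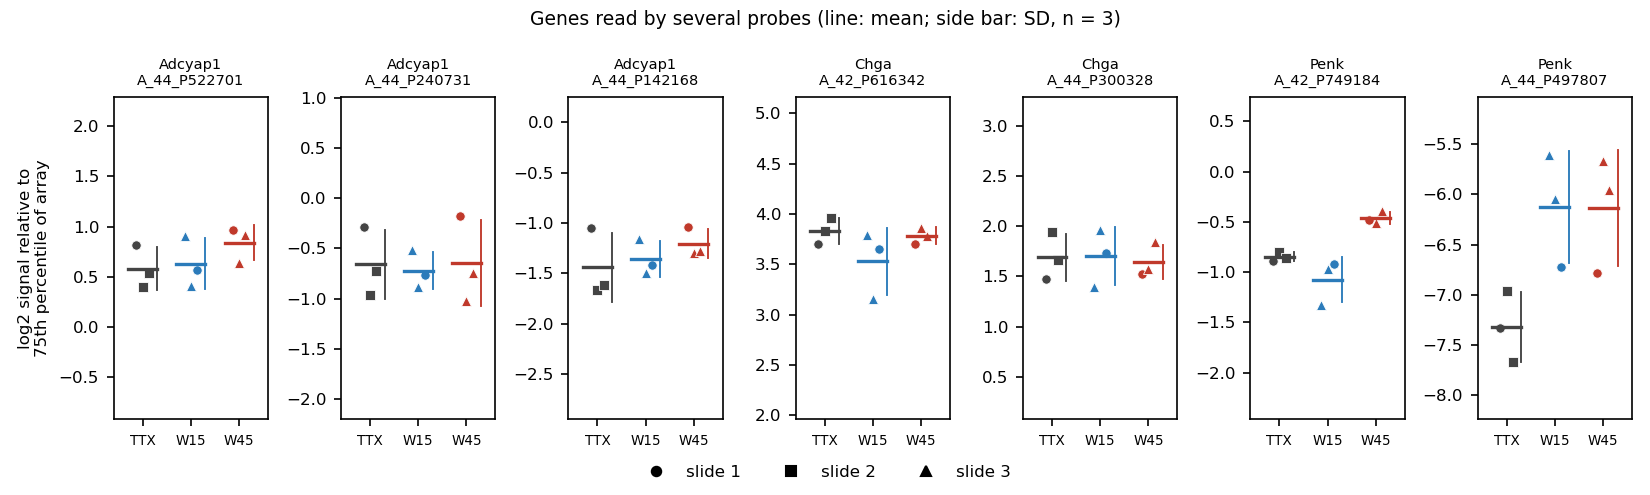
Log2 signal above or below the array's 75th percentile (vertical axis) for each probe of Adcyap1, Chga and Penk on the 9 arrays, by group (horizontal axis); points are arrays, shapes give the slide, lines are group means and side bars the SD of 3 arrays. The dim Penk probe (A_44_P497807) lies between -7.66 and -6.97 in TTX, below both washout groups, whereas the brighter one (A_42_P749184) is higher in W45 than in both other groups.

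The files place the probes on the rn3 build: Vgf (NM_030997) at chr12:20895877-20895936, Crh (NM_031019) at chr2:104709215-104709274, Scg2 (NM_022669) at chr9:78946953-78947012 and Chgb (NM_012526) at chr3:120490377-120490436. Their place within exons was not analysed here.

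Genes whose pattern was most like that of Vgf and Crh were sought by Pearson's r over the 9 arrays among 12303 other genes with a symbol, as a description. Nearest to Vgf were Nppc (r = 0.979), the precursor of C-type natriuretic peptide, Edn1 (0.976), the precursor of the secreted peptide endothelin 1, Dusp5 (0.970), an ERK phosphatase, Bdnf (0.970), a neurotrophin, and Tomm34 (0.965), a cochaperone of mitochondrial import. Nearest to Crh were Vgf (r = 0.965), Bdnf (0.948), Gpr135 (0.940), an orphan receptor, Nppc (0.939) and Tiparp (0.935), an ADP-ribosyltransferase. The 9 arrays are 3 groups of 3, so a gene that is high in W45 alone scores high whatever its size of change: at 45 min from TTX, Edn1 differed by 3.11 (limma adjusted p = 1.97e-05) and Bdnf by 1.94 (adjusted p = 0.00185), against 0.17 for Tomm34 (adjusted p = 0.822).

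The genes that process the precursors and build or release the granules did not pass the test. Of 18 such genes, 18 were tested and 0 were called by limma in any of the 3 comparisons. Of all genes, 0.0233% were called at 15 min, and 0.182% and 0.12% were called higher at 45 min against TTX and W15. At an unadjusted p under 0.05 there were 0 against TTX at 15 min, where 2.58% of all genes were higher and 0.919% lower. There were also 0 at 45 min, where 3.77% were higher and 2.67% lower. Between 15 and 45 min there was 1, which was higher, against 2.68% of all genes higher and 3.98% lower. The median difference of the 18 genes at 45 min from TTX was 0.07, against 0.051 for all genes, with a range of -0.21 to 0.23. The gene that reached the unadjusted threshold was Pcsk1, the prohormone convertase that makes the first cuts in many precursors. Its log2 signal was -2.47, -2.69 and -2.49 in TTX, -2.78, -3.08 and -2.55 in W15 and -2.32, -2.39 and -2.25 in W45. The W45 arrays lay above all others, as did those of 8.36% of all genes over TTX and 3.93% over W15. The differences were 0.23 ± 0.15 from TTX (limma adjusted p = 0.848) and 0.48 ± 0.15 from W15 (adjusted p = 0.697). Syt4, a synaptotagmin of dense-core granules, was at -0.21 ± 0.42 (adjusted p = 0.954). Cpe, carboxypeptidase E, was at -0.20 ± 0.13 (adjusted p = 0.831). Cadps2, a priming factor for granule release, was at 0.18 ± 0.13 (adjusted p = 0.859).

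Among 29 other neuropeptide precursors, 28 were tested, Tac2 being not analysed here, and 0 were called by limma in any comparison. At 45 min from TTX, 3 were higher and 0 lower at an unadjusted p under 0.05, against 3.77% of all genes higher and 2.67% lower, and the median was 0.12. Those 3 were Cartpt, Nppc and Cort, which were also the 3 higher between 15 and 45 min, where Gnrh1 was lower (2.68% of all genes were higher there and 3.98% lower). At 15 min there was 1, Calca, the calcitonin and CGRP gene, higher by 0.38 (limma adjusted p = 0.991), against 2.58% of all genes higher. Cartpt, the precursor of the CART peptides, gave a log2 signal of -2.62, -2.71 and -2.17 in TTX, -2.46, -2.72 and -2.21 in W15 and -1.51, -1.61 and -1.19 in W45. The W45 arrays lay above all 6 others, with a difference from TTX of 1.06 ± 0.20 (limma adjusted p = 0.138). Nppc gave -0.16, -0.29 and -0.01 in TTX, -0.35, -0.25 and -0.18 in W15 and 0.50, 0.62 and 0.63 in W45. It too was highest on the W45 arrays, by 0.74 ± 0.12 over TTX (adjusted p = 0.0821) and by 0.84 ± 0.12 over W15 (adjusted p = 0.0546). Cort, the precursor of cortistatin, a peptide of cortical inhibitory neurons, differed by 0.71 ± 0.17 (adjusted p = 0.371), with no overlap between W45 and the other groups. Gnrh1, the precursor of gonadotropin-releasing hormone, was at -0.48 ± 0.30 (adjusted p = 0.822), with overlapping arrays. Beside these, the transcription factor Dlx5, one of the 7 inhibitory markers, was at 0.73 ± 0.18 (adjusted p = 0.393), with the W45 arrays above the rest, and the median of the 7 was 0.25. Its part in the values of the precursors was not tested.

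Of 17 genes for neuropeptide receptors and the CRH-binding protein, 16 were tested, Oprm1 lying under the filter on dim probes, and 0 were called by limma in any comparison. At 45 min from TTX, 3 were higher (Sstr1, Sstr2 and Npy1r) and 0 lower at an unadjusted p under 0.05, against the same 3.77% and 2.67% of all genes, and the median was 0.11. Between 15 and 45 min there were 2 higher (Sstr2 and Npy1r), against 2.68% of all genes higher. At 15 min there were 2 others, Crhr2 at 0.34 and Cckbr at 0.51 (limma adjusted p = 0.991 for both), against 2.58% of all genes higher. Sstr2, a somatostatin receptor, gave a log2 signal of 0.35, 0.62 and 0.79 in TTX, 0.45, 0.82 and 0.89 in W15 and 1.06, 1.14 and 1.18 in W45. The W45 arrays lay above all others, by 0.54 ± 0.16 over TTX (limma adjusted p = 0.621). Crhbp, whose product binds CRH outside the cell, was at 0.65 ± 0.32 (adjusted p = 0.778): W45 replicates 2 and 3, at -1.58 and -1.53, lay above the other arrays, and W45 replicate 1, at -2.70, among them. Npy1r, a receptor of neuropeptide Y, was at 0.56 ± 0.25 (adjusted p = 0.765), and Tacr3, a tachykinin receptor, at -0.57 ± 0.31 (adjusted p = 0.803), both with overlapping arrays.

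**Figure D4:**
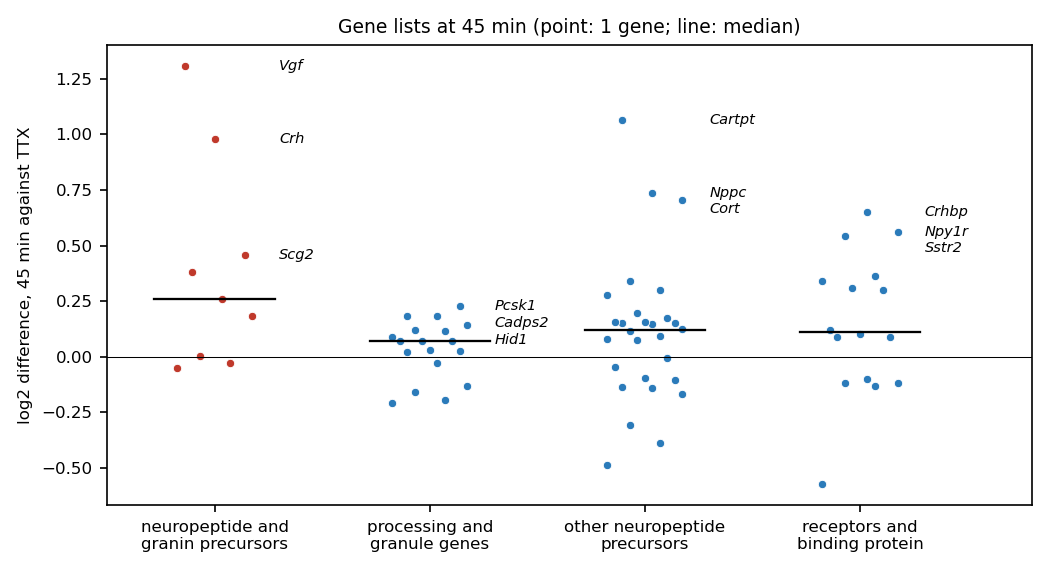
Log2 difference of W45 against TTX (vertical axis) for the 9 precursor genes and the 3 lists (horizontal axis); each point is 1 gene, black lines are medians (0.26, 0.07, 0.12 and 0.11 from left to right), and the highest 3 of each list are named. Vgf, at 1.31, is the only point with an adjusted p under 0.05.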

How the data were processed

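Per the file headers, each deposited scanner file holds Cy3 spot intensity values from an Agilent rat array (design 014879, Feature Extraction 9.5.3.1, or 9.5 per the submitters' processing notes, protocol GE1-v5_95_Feb07, probe positions on rn3). The processed intensity is background-subtracted by that software and not scaled between arrays, and the authors' deposited table of values held the same intensity values. The log2 of this intensity minus the array's 75th percentile over non-control probes was analysed. Control and outlier spots were left out and spots of a probe averaged. A probe was kept if some group had it well above background on each of its 3 arrays (30322 probes, among them all 13 of the 9 genes), and a gene was read by its brightest probe. All 9 arrays were fitted with limma 3.58.1 in R 4.3.3, with 1 mean for each group and two-sided moderated tests. The Benjamini-Hochberg adjustment ran over 25787 genes or features, and those under 0.05 were called. The adjusted p of a gene's dimmer probes came from a like fit of all 30322 kept probes, adjusted over these probes. The gene fit was tested on simulated data. With 3 arrays against 3, the smallest exact permutation p is 0.1; such tests were not run. Alternatives changed the background correction (normexp, offset 50), scaling, filter, probe choice, slide or replicate block, variance model and arrays. The genes, lists and tests were chosen with earlier results of these data known. Named are the 9 genes, the immediate early genes, up to 4 genes per list with the largest difference at 45 min from TTX, and the 5 genes most like each called gene; Dlx5, Calca, Crhr2, Cckbr and Sstr1 were named after their values were seen. Figures used matplotlib 3.10.9 (Python 3.11.15).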

Additional observations from a re-analysis of the deposited data

How the results depend on the processing

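At 15 min 0 of 9 genes were called under every alternative run. The count of 1 for W45 against TTX fell to 0 with normexp, without scaling, with slide as a fixed block and with only the groups compared fitted, and ranged from 0 to 1 when 1 array was left out (0 without TTX replicate 2 or 3). The count of 2 for W45 against W15 fell to 0 with normexp and without scaling. It fell to 1 (Vgf) with quantile scaling, median scaling, no filter on dim probes, slide as a random block, the replicate block, and only the groups compared, and ranged from 0 to 2 when 1 array was left out (0 without W15 replicate 1 or 2). The rise of Vgf was called in 16 of 22 alternatives against TTX and 18 of 22 against W15. Same-numbered arrays of different groups deviated together in 8 of 9 pairs at over 0.1 (r from 0.063 to 0.39). Of 18 pairs with different numbers 0 did so (r from -0.38 to 0.089), and 9 of 9 arrays correlated best with their own number. The main fit did not pair the samples by number, so it left out this shared part, which the replicate block takes in. The replicate block gave 1 call against TTX (adjusted p = 0.0195 for Vgf) and changed Crh in W45 against W15 to an adjusted p of 0.0782; all genes called were 47 and 27 under it, against 52 and 34. Counts over all genes in W45 against TTX moved from 52 to 23 with normexp, 31 without scaling, 22 with the slide block, 32 with only the groups compared, and 29 to 174 when 1 array was left out (174 without W45 replicate 1); in W45 against W15 they moved from 34 to 15 with normexp, 20 with no filter, 19 with only the groups compared, and 18 to 191. At 15 min they moved from 6 to 2 with normexp, 0 with the slide block, 10 with a trended and robust variance, and 2 to 8 when 1 array was left out. The causes were not tested.

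Reversals concerned values that were not called. With normexp, where the median of all genes moved to 0.21 at 15 min and 0.13 at 45 min against TTX, Crh, Adcyap1 and Tac1 at 15 min were 0.30, -0.10 and 0.028, and Tac1 was 0.073 at 45 min and 0.045 in W45 against W15. Without scaling, where the median of all genes was -0.15 and -0.21, Adcyap1 at 15 min was -0.16, and Pdyn, Adcyap1 and Chgb at 45 min were -0.26, -0.0053 and -0.081. With median scaling, Adcyap1 at 15 min was -0.0081, Pdyn at 45 min -0.018 and Tac1 in W45 against W15 0.0069. With the mean of all probes, which takes in the dim Penk probe, Penk at 15 min was 0.48. With the slide block, whose values against TTX rest on TTX replicate 1, Adcyap1 and Tac1 at 15 min were -0.15 and 0.54, and Pdyn, Tac1 and Chga at 45 min were -0.36, 0.51 and 0.10. When 1 array was left out, Adcyap1 at 15 min ranged from -0.0935 to 0.16, Tac1 from -0.27 to 0.25, Scg2 from -0.26 to 0.078, Pdyn at 45 min from -0.13 to 0.14, Tac1 from -0.17 to 0.22, Chga from -0.11 to 0.018, and Tac1 in W45 against W15 from -0.21 to 0.24.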
